A study of Mus musculus with 40 samples.

Results

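Of the 40 libraries of the series, 6 came from YUMM1.7 cells, a mouse melanoma line with mutant Braf, that carried an empty vector (YUMM1.7-EV), wild-type Bmal1 (YUMM1.7-WT) or a Bmal1 construct labelled bHLH (YUMM1.7-bHLH), with 2 libraries of each. These 6 libraries were chosen by cell line and construct, and each construct was set against EV and against the other construct. All 3 groups are labelled as carrying the control, unedited Arntl gene, so each construct was added to cells that keep their own Bmal1. In the study the construct carrying the same label in other lines lacks the basic helix-loop-helix region that binds DNA, still pairs with Clock, and acts as a dominant negative; how the YUMM1.7 lines were made, and whether the libraries of a group came from separate cultures, is not given in the sources used here, although the study describes Quant-seq duplicates of its YUMM lines as biological replicates. The comparisons address how the transcriptome of a line that the study treats as resistant to immunotherapy moves when intact or DNA-binding-deficient Bmal1 is added, the construct design that the series also holds in YUMM2.1 cells and in aC3, a single clone of YUMM2.1 without Bmal1.

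Bmal1, the product of Arntl, pairs with Clock, and the pair binds E-box sequences near genes such as Nr1d1, Nr1d2, Per1 to Per3, Cry1, Dbp and Tef and raises their transcription. Per and Cry proteins then repress the Clock-Bmal1 pair, which closes the main loop of the circadian clock. In a second loop the nuclear receptors Nr1d1 and Nr1d2 (REV-ERBs) repress Arntl, Cry1 and Nfil3 through ROR elements, and ROR receptors act on the same elements in the opposite direction. Dbp, Tef and Hlf are PAR-bZIP factors that pass clock output to further genes, and Nfil3 opposes them.

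The libraries were made from the 3' ends of transcripts, and each gene is given as counts or as CPM, the count scaled to the size of the library after TMM normalisation. Totals ran from 9554182 to 11035156 counts, so 3 counts in a library were worth 0.27 to 0.315 CPM. Genome-wide, libraries of the same group correlated at 0.982 to 0.985 on the log scale and libraries of different groups at 0.98 to 0.983, as a description across genes. Keratinocyte markers had 0 counts in all 6 libraries, leukocyte markers summed to 1.16 to 2.0 CPM and endothelial markers, of which Cdh5 and Pecam1 carried the signal while Kdr was at 0, to 12.4 to 23.1 CPM. The endothelial sum was highest in both WT libraries (23.1 and 20.9 CPM, against 12.4 and 15.1 with EV and 18.3 and 15.3 with bHLH), without a call for Cdh5 or Pecam1, and its part in the results was not tested. Of 23 melanocytic genes, 8 were at 0 in every library, among them Tyrp1, Dct, Mlana and Kit, and Sox10, a factor of the melanocytic lineage, had 1 to 17 counts per library. Sox9, which marks neural crest-like and mesenchymal melanoma states, lay at 217 to 253 CPM in all 6 libraries, so the label melanoma rests in these cells on few pigment-cell transcripts.

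More genes passed the threshold between bHLH and EV than between WT and EV, and the largest number passed between the constructs. Among 13816 genes tested with edgeR's quasi-likelihood test at a Benjamini-Hochberg adjusted p under 0.05, 87 (0.63%) were called between bHLH and EV, with 29 higher (0.21%) and 58 lower (0.42%). Between WT and EV 19 genes were called (0.138%), 6 higher (0.0434%) and 13 lower (0.0941%). Between WT and bHLH 355 were called (2.57%), 206 higher in WT (1.49%) and 149 lower (1.08%). At an unadjusted p under 0.05 the numbers against EV were close, 1423 for WT and 1428 for bHLH, and without WT replicate 1 the called numbers were 165 and 197. The median log2 fold change over all tested genes was 0.003, -0.003 and 0.002 in WT against EV, bHLH against EV and WT against bHLH. These 3 comparisons share libraries, so their gene lists are not independent, and with 2 libraries against 2 an exact permutation test of a single value cannot go below p = 0.33. In a fit over all 40 libraries, 0, 4 and 27 genes were called in the same order of comparisons, and leaving out single libraries gave 2 to 165, 22 to 197 and 106 to 308.

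**Figure D1:**
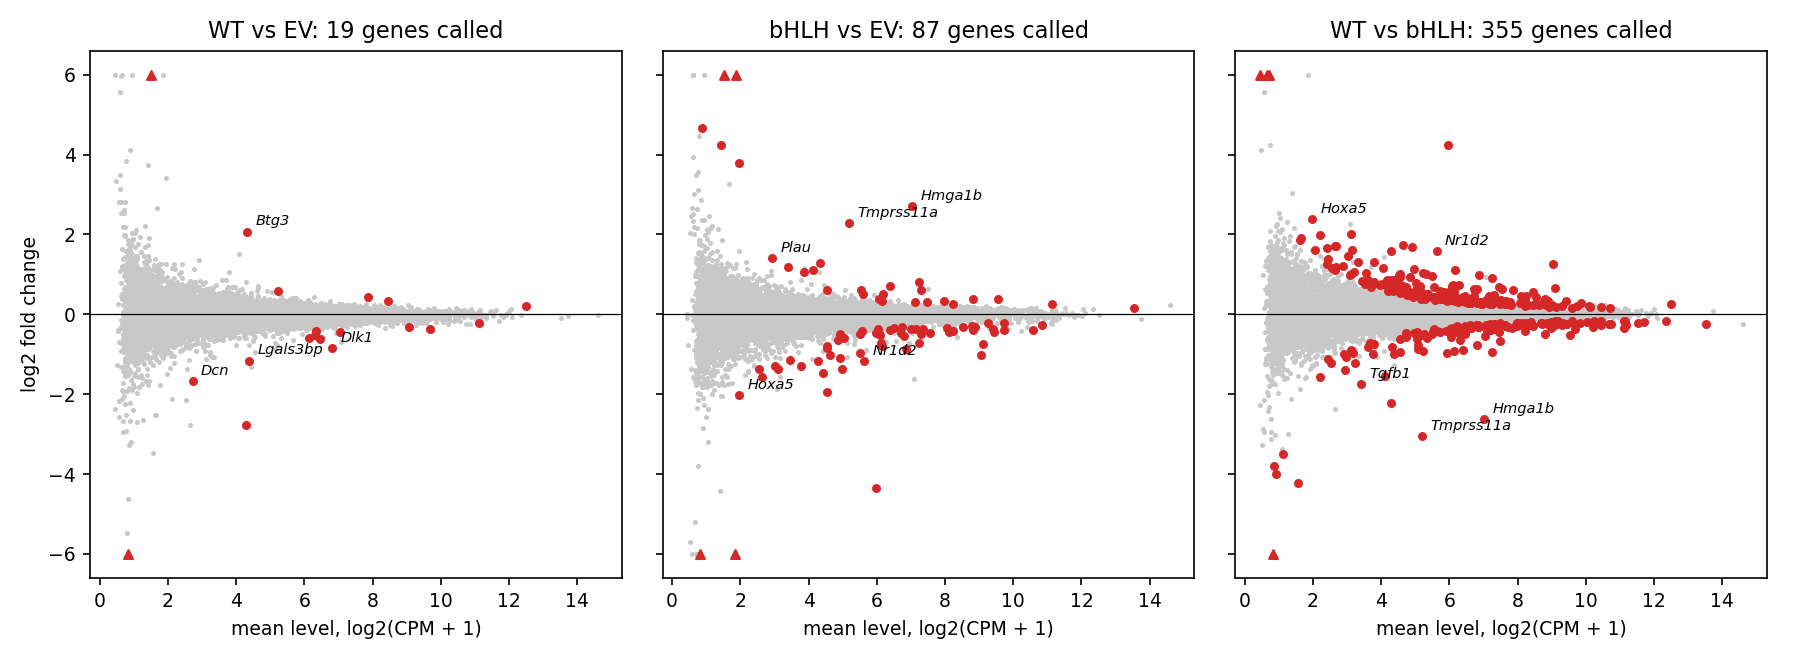
Each point is a tested gene, with its mean level in log2(CPM + 1) on the x axis and its log2 fold change on the y axis, for WT against EV, bHLH against EV and WT against bHLH. Red points are the 19, 87 and 355 genes called, triangles are called genes whose change lies beyond 6 on the log2 scale and which are drawn at that edge, and named genes such as Hmga1b and Tmprss11a stand apart from the grey points at the same level.

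The promoters of 3 clock genes that moved between the constructs are shown because they carry E-box or E'-box letters of the kind Clock-Bmal1 is known to bind, and the promoter of Nr1d2 because it was the clock gene with the smallest adjusted p against EV and holds only the short ROR-type element. The windows are from RefSeq (GRCm38.p6), 300 bases each, from 250 bases before the transcript start, read 5' to 3' on the gene's strand, with matches in capitals: CACGTG (E-box, its own reverse complement), CACGTT or its reverse AACGTG (E'-box), and AGGTCA or its reverse TGACCT (short ROR-type element). Tef, a PAR-bZIP factor, chr15:81802423-81802722 on the plus strand; Cry1, a repressor of Clock-Bmal1, chr10:85185005-85185304 on the minus strand; Nr1d1, chr11:98775328-98775627 on the minus strand; Nr1d2, chr14:18239057-18239356 on the minus strand.
Tef: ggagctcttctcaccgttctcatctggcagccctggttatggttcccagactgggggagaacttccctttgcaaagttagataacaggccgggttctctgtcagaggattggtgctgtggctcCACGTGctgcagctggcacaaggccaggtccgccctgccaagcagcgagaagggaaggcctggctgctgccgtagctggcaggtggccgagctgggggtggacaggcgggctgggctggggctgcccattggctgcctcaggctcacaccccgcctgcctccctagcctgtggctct
Cry1: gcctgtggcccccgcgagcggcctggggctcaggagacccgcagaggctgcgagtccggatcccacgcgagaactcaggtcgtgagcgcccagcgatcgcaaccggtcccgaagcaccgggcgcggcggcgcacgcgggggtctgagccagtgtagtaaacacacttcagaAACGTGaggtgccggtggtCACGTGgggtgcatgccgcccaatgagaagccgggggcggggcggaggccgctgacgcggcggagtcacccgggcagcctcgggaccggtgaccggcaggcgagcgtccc
Nr1d1: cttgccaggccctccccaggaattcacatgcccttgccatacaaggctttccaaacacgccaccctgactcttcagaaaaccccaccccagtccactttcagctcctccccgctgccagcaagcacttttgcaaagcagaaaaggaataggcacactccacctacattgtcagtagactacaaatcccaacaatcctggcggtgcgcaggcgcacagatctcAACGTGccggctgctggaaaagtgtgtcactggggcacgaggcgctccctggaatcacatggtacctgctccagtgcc
Nr1d2: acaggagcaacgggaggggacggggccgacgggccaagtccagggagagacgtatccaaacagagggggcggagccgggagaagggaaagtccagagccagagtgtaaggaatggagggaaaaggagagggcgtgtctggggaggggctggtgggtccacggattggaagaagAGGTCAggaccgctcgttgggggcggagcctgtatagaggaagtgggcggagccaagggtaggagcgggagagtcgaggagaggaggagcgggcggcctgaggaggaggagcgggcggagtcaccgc
Tef held CACGTG here and again in the window of its other start, chr15:81811164-81811463. Of 32851 such windows genome-wide, 7.15% held CACGTG, 4.685% held CACGTT on either strand and 16.26% held AGGTCA on either strand. The windows of Per3 and Dbp, both lower with bHLH, held none of these letters. Clock genes without a call also held them: Ciart, Bhlhe41 and Per1 had CACGTG in a window, and Cry2 and Rorb had CACGTT on either strand. The letters therefore did not separate called from uncalled clock genes. A match is a description of the sequence and not a bound site, and no match says only that these letters are absent from this window.

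Both REV-ERB genes were lower with the bHLH construct and had their highest values with wild-type Bmal1. Nr1d2 had 53.8 and 50.9 CPM with EV, 72 and 67.4 with WT and 22.3 and 24.3 with bHLH, so the groups were ordered bHLH, EV, WT without overlap. It fell with bHLH against EV (log2 fold change -1.17 ± 0.10, adjusted p = 1.3e-05) and was higher in WT than in bHLH (log2 fold change 1.58 ± 0.09, adjusted p = 1.06e-07), while WT against EV missed the threshold (log2 fold change 0.41 ± 0.09, adjusted p = 0.0734). Nr1d1 had 7.37 and 8.15 CPM with EV, 12.4 and 11.7 with WT and 2.63 and 3.35 with bHLH. Its order was the same, with a fall against EV under bHLH (log2 fold change -1.37 ± 0.24, adjusted p = 0.00975), a difference between constructs (log2 fold change 2.00 ± 0.23, adjusted p = 9.03e-05) and no call for WT against EV (log2 fold change 0.64 ± 0.20, adjusted p = 0.261). The call of Nr1d1 in bHLH against EV was lost without EV replicate 1, EV replicate 2 or bHLH replicate 1, at an adjusted p of up to 0.15, whereas that of Nr1d2 held in the 15 alternatives that gave it an adjusted p. Rora, an activator on ROR elements, had 7.74 and 7.28 CPM with EV, 7.36 and 7.12 with WT and 8.83 and 8.55 with bHLH. Rorb, its paralogue, had 35.3 and 33 CPM with EV, 26.3 and 29.4 with WT and 31.2 and 31.9 with bHLH. No comparison called either.

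Among the activators of the clock, Arntl itself was the gene with a call. Arntl had 8.64 and 8.82 CPM with EV, 15.2 and 12.9 with WT and 15.1 and 21 with bHLH. All 4 construct libraries lay above both EV libraries, and the difference passed the test for bHLH (log2 fold change 1.05 ± 0.19, adjusted p = 0.0136) and not for WT (log2 fold change 0.68 ± 0.19, adjusted p = 0.22). The bHLH libraries differed from each other by more than the WT libraries did, and the bHLH call was lost without EV replicate 1, EV replicate 2 or bHLH replicate 2, with an adjusted p of up to 0.257. Counts at the 3' end of Arntl do not separate transcripts of the cells' own gene from those of a construct, and whether the construct carries this 3' end is not given in the sources used here, so these values check neither construct. Clock, the partner of Bmal1, had 59.5 and 62.3 CPM with EV, 63.2 and 66 with WT and 67.9 and 71.1 with bHLH. It was not called. Arntl2, a paralogue of Bmal1, had 14.7 and 13 CPM with EV, 18.1 and 18.9 with WT and 12.5 and 15.2 with bHLH, highest in both WT libraries but not called, and Npas2, which can replace Clock, had 0 counts throughout.

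The repressors were called in both directions. Per3 had 29.3 and 29.7 CPM with EV, 39.2 and 49.7 with WT and 13.9 and 13.8 with bHLH, with no overlap between any groups. It fell with bHLH (log2 fold change -1.09 ± 0.13, adjusted p = 0.00044) and was higher in WT than bHLH (log2 fold change 1.68 ± 0.13, adjusted p = 2.25e-06), while WT against EV gave log2 fold change 0.59 ± 0.12, adjusted p = 0.058. Without WT replicate 1 that last comparison passed the test (log2 fold change 0.75, adjusted p = 0.00315). Per2 had 9.37 and 7.38 CPM with EV, 7.64 and 10.01 with WT and 4.2 and 5.86 with bHLH, lowest in both bHLH libraries without a call in any comparison. Per1, the remaining Period gene, had 4.64 and 6.04 CPM with EV, 8.1 and 4.96 with WT and 5.25 and 4.09 with bHLH, with overlapping groups and no call. Cry1 went the other way. It had 13.9 and 11.1 CPM with EV, 9.2 and 9.38 with WT and 26.9 and 27.7 with bHLH, highest in both bHLH libraries and lowest in both WT libraries. Cry1 rose with bHLH (log2 fold change 1.12 ± 0.15, adjusted p = 0.0012) and was lower in WT than in bHLH (log2 fold change -1.55 ± 0.16, adjusted p = 2.83e-05). Without EV replicate 2 the adjusted p of Cry1 in bHLH against EV was 0.0532. Cry2, its paralogue, had 13.7 and 14.4 CPM with EV, 14.8 and 14.2 with WT and 16.9 and 16.1 with bHLH. It was not called. Bhlhe40, a repressor that binds E-boxes, had 11.9 and 11.1 CPM with EV, 13.2 and 14.8 with WT and 5.78 and 7.81 with bHLH. It differed between the constructs (log2 fold change 1.03 ± 0.19, adjusted p = 0.00776), a call lost without bHLH replicate 1 (adjusted p = 0.0975). Bhlhe41 and Ciart, further repressors of Clock-Bmal1, were lowest in both bHLH libraries, at 5.78 and 5.11 and 1.58 and 1.58 CPM, and were not called.

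Of the output factors, Dbp and Tef followed the REV-ERB genes. Dbp had 22.7 and 23 CPM with EV, 46.4 and 28.9 with WT and 12.2 and 10.3 with bHLH. Both bHLH libraries were lowest, and the WT libraries differed from each other by more than those of the other groups. The fall with bHLH passed the test (log2 fold change -1.02 ± 0.20, adjusted p = 0.0234) but did so in no fit that left out an EV or a bHLH library, at an adjusted p of up to 0.28. Without WT replicate 2, Dbp also passed in WT against EV (log2 fold change 1.02, adjusted p = 0.00133). The difference between constructs was log2 fold change 1.74 ± 0.19, adjusted p = 6.09e-05. Tef had 72.9 and 77.8 CPM with EV, 93 and 93.8 with WT and 39.8 and 47.1 with bHLH. It fell with bHLH (log2 fold change -0.79 ± 0.09, adjusted p = 0.000152) and differed between the constructs (log2 fold change 1.10 ± 0.09, adjusted p = 2.36e-06). Nfil3, their antagonist, had 9.37 and 7.09 CPM with EV, 5.34 and 5.59 with WT and 11.3 and 10.1 with bHLH, lowest in both WT libraries and called only between the constructs (log2 fold change -0.97 ± 0.21, adjusted p = 0.0217), a call lost when any single WT or bHLH library was left out (adjusted p up to 0.14). Hlf was at 4 to 14 counts per library. Usp2, Wee1, Nampt and Noct, further clock-controlled genes, were called in no comparison, and the 6 Noct libraries ranged from 178 to 206 CPM.

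In the clock lists, 7 of the 23 tested genes passed edgeR's test between bHLH and EV, 2 higher and 5 lower, beside 0.63% of all genes, and 8 passed between WT and bHLH, 6 higher in WT and 2 lower, beside 2.57%. Between WT and EV 0 of 23 passed, with 11 at an unadjusted p under 0.05 and 0 with DESeq2. By its default DESeq2 gave an adjusted p for only 1, 3 and 15 of the 23 genes in WT against EV, bHLH against EV and WT against bHLH, and called 0, 1 and 6. Without that filter (an alternative added once the data had been seen) it called 0, 7 and 7 of them. Leaving out no library moved any of these named genes to the opposite direction in a comparison where it was called. The strand used in counting is not given in the sources used here, and Nr1d1 (Thra), Dbp (Sphk2), Tef (Gm17597), Arntl (Gm45355) and Bhlhe40 (0610040F04Rik) overlap a gene on the opposite strand, while Per3 overlaps Camta1 on the same strand, so reads of such pairs could be split or shared in counting.

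**Figure D2:**
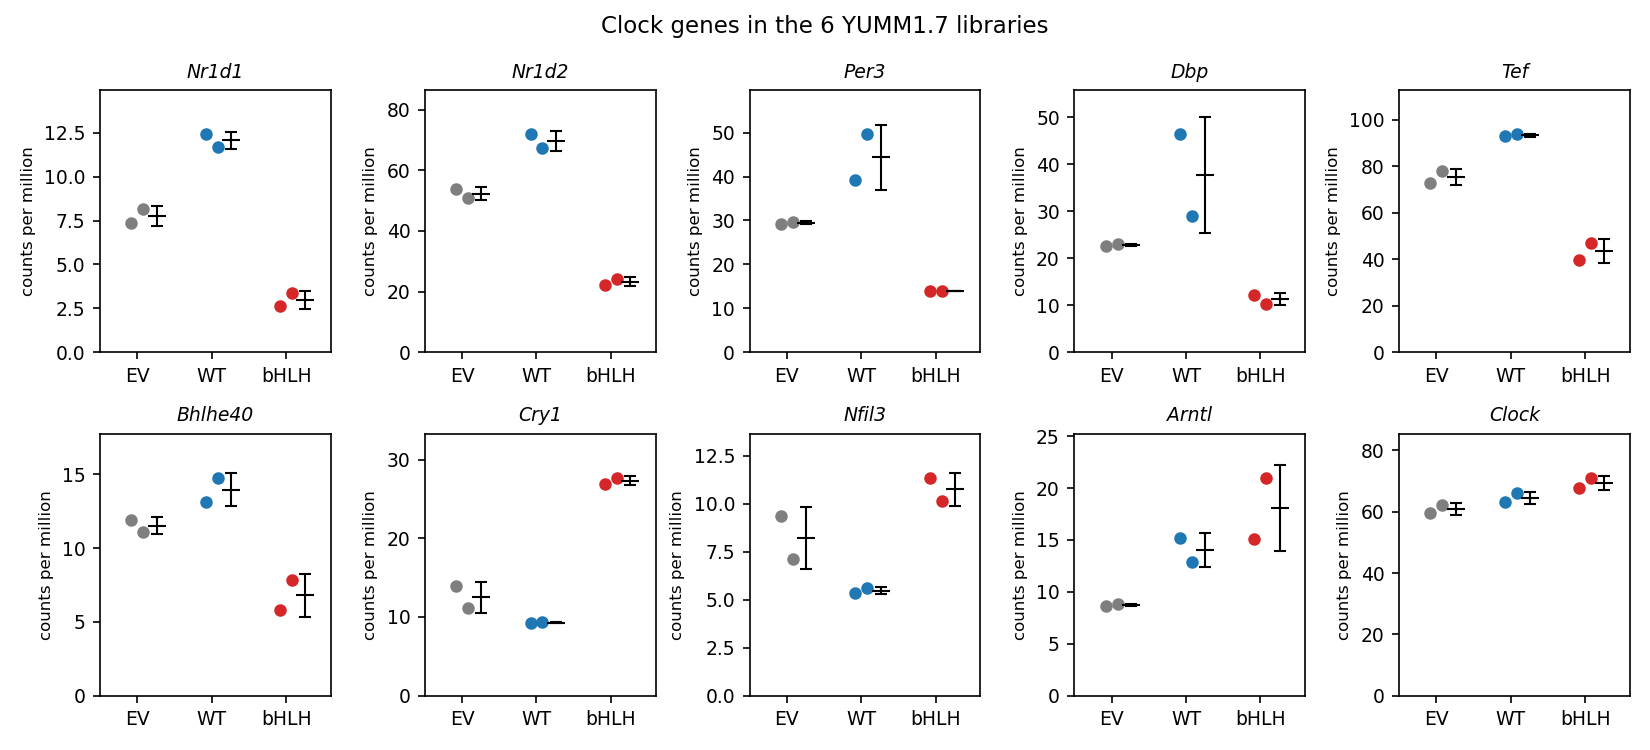
Each panel gives a clock gene in CPM on the y axis for YUMM1.7-EV, -WT and -bHLH, with a point for each library and the mean ± SD of 2 libraries beside them. Nr1d2, Per3, Nr1d1, Dbp and Tef are lowest in both bHLH libraries and highest in both WT libraries, and Cry1 has the reverse order.

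Outside the clock, the genes that rose with bHLH included a serine protease, secreted factors and matrix genes. Tmprss11a (chr5:86410410-86468990), a membrane serine protease of epithelia, had 14.8 and 18.4 CPM with EV, 4.42 and 15.1 with WT and 81.2 and 81.3 with bHLH. Both bHLH libraries stood above all others, and WT replicate 1 lay below the remaining 3. The rise against EV was log2 fold change 2.29 ± 0.24, adjusted p = 0.000129 and the difference between constructs log2 fold change -3.05 ± 0.26, adjusted p = 4.27e-06, and the second held in every alternative run. The first was lost only with DESeq2 without its independent filtering (adjusted p = 0.0967). Tmem245, a membrane protein, had 120.5 and 128 CPM with EV, 103 and 122 with WT and 220.2 and 214 with bHLH. It rose against EV in every alternative as well (log2 fold change 0.80 ± 0.07, adjusted p = 2.87e-05). Plau, the urokinase plasminogen activator, had 3.91 and 4.7 CPM with EV, 4.23 and 4.42 with WT and 12.4 and 10.3 with bHLH, with the bHLH libraries alone above the rest (log2 fold change 1.40 ± 0.23, adjusted p = 0.00569). The call was lost without EV replicate 1, EV replicate 2 or bHLH replicate 1, with an adjusted p of up to 0.128. Tgfb1, the cytokine that restrains immune cells and drives matrix production, had 7.46 and 7.09 CPM with EV, 2.94 and 6.85 with WT and 17.4 and 15.6 with bHLH. It rose with bHLH (log2 fold change 1.18 ± 0.25, adjusted p = 0.0454), a call lost when any single EV or bHLH library was left out (adjusted p up to 0.445), and was lower in WT than bHLH (log2 fold change -1.75 ± 0.26, adjusted p = 0.00149), which held in every alternative that gave an adjusted p. Zfp97, a zinc finger gene, had 7 and 0 counts with EV, 30 and 49 with WT and 55 and 38 with bHLH, so EV was near the floor. It rose with bHLH (log2 fold change 3.78 ± 0.65, adjusted p = 0.00969), a call lost without EV replicate 2 or bHLH replicate 1.

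Among the genes that fell with bHLH were Ero1l, Hoxa5, Fst and Ifit3. Ero1l, the oxidase that makes disulfide bonds in the endoplasmic reticulum, had 81.3 and 74.8 CPM with EV, 82.8 and 74.9 with WT and 49.2 and 45.7 with bHLH, with EV and WT overlapping and bHLH below both. It fell against EV (log2 fold change -0.72 ± 0.09, adjusted p = 0.000289) and was among the 4 genes called in the fit over all 40 libraries, with Nr1d2, Tmprss11a and Tmem245. Hoxa5, a homeobox factor, had 43 and 31 counts with EV, 44 and 54 with WT and 11 and 6 with bHLH. It lay at the threshold (log2 fold change -2.02 ± 0.44, adjusted p = 0.04995). The call of Hoxa5 was lost in 10 of 15 alternatives, among them the replicate block and every fit that left out an EV or a bHLH library. Its neighbour Hoxa7 had 58 and 48 counts with EV, 82 and 109 with WT and 21 and 33 with bHLH. Hoxa7 was called only between the constructs (log2 fold change 1.71 ± 0.28, adjusted p = 0.00251), in every alternative that gave an adjusted p. Fst, which binds activin, had 5.73 and 7.09 CPM with EV, 7.36 and 6.76 with WT and 2.84 and 1.49 with bHLH. It fell (log2 fold change -1.58 ± 0.31, adjusted p = 0.0297), lost without EV replicate 1, EV replicate 2 or bHLH replicate 2. Ifit3, an interferon-induced gene, had 10.2 and 9.49 CPM with EV, 8.1 and 6.94 with WT and 2.63 and 5.3 with bHLH. It fell (log2 fold change -1.29 ± 0.27, adjusted p = 0.0405), lost without EV replicate 1, EV replicate 2 or bHLH replicate 1. Vps51 and Pet2 were lower in both bHLH libraries than in both EV libraries and were called (-1.47 and -1.37 on the log2 scale), with WT libraries at 21.1 and 7.12 and 2.3 and 4.06 CPM that also lay below EV without a call. Both calls were lost with the replicate block and when any single EV or bHLH library was left out, at adjusted p of up to 0.423 for Vps51 and 0.352 for Pet2, and with DESeq2 without independent filtering (adjusted p = 0.814 and 0.0998). Some calls rested on pseudogenes or unnamed transcripts at 0 in a group, for which a fold is only a bound against 3 counts per library. The pseudogene Gm13237 had 0 and 0 counts with EV, 0 and 56 with WT and 68 and 40 with bHLH, at least 19.4-fold higher with bHLH than EV. Gm43694, a predicted gene, had 58 and 55 counts with EV, 0 and 56 with WT and 0 and 0 with bHLH, at least 17.8-fold lower. Rpl23a-ps3 ranged from 0 to 1714 counts with a wide spread inside every group.

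Among the 19 genes called between WT and EV, Btg3, Anxa1, Pmpcb and Eef1a1 were higher and Dlk1 was lower in WT. Btg3 (chr16:78332637-78377192), an antiproliferative factor, had 10.5 and 4.41 CPM with EV, 29.7 and 33.3 with WT and 19.3 and 17.1 with bHLH, with a spread between the EV libraries. It rose with WT (log2 fold change 2.07 ± 0.23, adjusted p = 0.0011) and also with bHLH (log2 fold change 1.28 ± 0.25, adjusted p = 0.0237). The WT call held with any library left out and was lost in the fit over all 40 libraries, while the bHLH call was lost without EV replicate 2 or either bHLH library. The processed pseudogene Gm7334 moved opposite to Btg3. Scaled together with the YUMM2.1 libraries, Gm7334 had 29.1 and 31.2 CPM with EV, 8.48 and 0.354 with WT and 18.6 and 22.3 with bHLH. Whether reads were divided between Btg3 and Gm7334 was not tested, and their sum was not fitted. Dlk1 (chr12:109452823-109463336), a non-canonical Notch ligand of progenitor cells, had 138 and 128 CPM with EV, 76 and 72.8 with WT and 127 and 129 with bHLH. WT alone was lower (log2 fold change -0.84 ± 0.07, adjusted p = 2.1e-05), also with any library left out, and it was lower in WT than in bHLH (log2 fold change -0.78 ± 0.07, adjusted p = 5.85e-06). Anxa1, a phospholipid-binding protein that limits inflammation, had 196 and 233 CPM with EV, 288 and 294 with WT and 187 and 195 with bHLH. It rose with WT (log2 fold change 0.44 ± 0.07, adjusted p = 0.0125). Pmpcb, which cleaves mitochondrial import signals, had 31.7 and 36.7 CPM with EV, 48.7 and 53.5 with WT and 25.7 and 24.3 with bHLH. It rose (log2 fold change 0.58 ± 0.10, adjusted p = 0.034), a call lost in 5 of the fits that left out a library. Eef1a1, the translation elongation factor, rose by 0.22 on the log2 scale (adjusted p = 0.0349).

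Genes that fell with WT included secreted, matrix and interferon-induced products. Lgals3bp, a secreted galectin-binding glycoprotein induced by interferon, had 27.4 and 23.6 CPM with EV, 12.4 and 10.5 with WT and 19.9 and 25.8 with bHLH, with WT below both other groups (log2 fold change -1.16 ± 0.16, adjusted p = 0.00799). Ifi27, another interferon-induced gene, had 110.4 and 90.8 CPM with EV, 67.1 and 64.6 with WT and 88.4 and 98.1 with bHLH. It fell (log2 fold change -0.61 ± 0.09, adjusted p = 0.00957). Mmp3, a matrix metalloproteinase, had 71.4 and 71.6 CPM with EV, 49.6 and 45.5 with WT and 90.8 and 90.8 with bHLH. It moved in opposite directions, lower with WT (log2 fold change -0.59 ± 0.08, adjusted p = 0.00592) and higher with bHLH (log2 fold change 0.34 ± 0.07, adjusted p = 0.0484). Gap43, a growth cone protein of neural cells, had 87 and 82.8 CPM with EV, 58.5 and 60.03 with WT and 96.9 and 89.2 with bHLH. It fell with WT only (log2 fold change -0.52 ± 0.08, adjusted p = 0.00957). Gpnmb, a glycoprotein of melanosomes and lysosomes, had 144 and 138 CPM with EV, 109.5 and 97.4 with WT and 139.6 and 163 with bHLH. It fell (log2 fold change -0.45 ± 0.08, adjusted p = 0.034). Dcn, a collagen-binding proteoglycan, had 10.6 and 8.24 CPM with EV, 3.87 and 1.98 with WT and 5.36 and 3.9 with bHLH. It fell with WT (log2 fold change -1.68 ± 0.30, adjusted p = 0.0349), while bHLH against EV gave log2 fold change -1.03 ± 0.29, adjusted p = 0.168. Acta2, smooth muscle actin, fell by 0.41 on the log2 scale (adjusted p = 0.0354). Without EV replicate 1 only 2 genes were called between WT and EV, and the calls of Lgals3bp, Ifi27, Mmp3, Gap43, Gpnmb, Dcn, Anxa1, Pmpcb, Eef1a1 and Acta2 were lost. The processed pseudogenes Gm7334, Gm6136 and Rpl17-ps8 completed the genes named by the rule, and Gm7334 had 94 and 4 counts in the WT libraries.

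In the list of 45 genes of the mesenchymal melanoma state, 40 were tested, and between the constructs 6 were lower in WT than in bHLH and none higher, beside 1.08% of all genes, at a list median of -0.04. Bgn, the matrix proteoglycan biglycan, had 691 and 693 CPM with EV, 635 and 622 with WT and 891 and 916 with bHLH, with bHLH above and WT below EV. It rose with bHLH (log2 fold change 0.38 ± 0.04, adjusted p = 0.000151) and differed between constructs (log2 fold change -0.52 ± 0.04, adjusted p = 3.37e-06). Col6a2, a collagen VI chain, had 74 and 67.4 CPM with EV, 65.3 and 59.5 with WT and 118 and 114 with bHLH. It too rose with bHLH (log2 fold change 0.71 ± 0.08, adjusted p = 0.000135). Fbn1, which builds microfibrils, had 38.8 and 31.5 CPM with EV, 24.5 and 27.3 with WT and 45.8 and 52.1 with bHLH. It differed only between the constructs (log2 fold change -0.92 ± 0.12, adjusted p = 0.000284), as did Col6a1 and the collagenase Mmp14. Axl, a receptor tyrosine kinase of this state, had 729.6 and 717 CPM with EV, 631 and 637 with WT and 745 and 764 with bHLH, a difference between constructs of log2 fold change -0.25 ± 0.04, adjusted p = 0.00411 that was lost without bHLH replicate 2 (adjusted p = 0.0594). Against EV, 2 members were higher with bHLH and none lower, beside 0.21% of all genes higher, at a median of 0.03. Dcn alone was lower with WT and none was higher, beside 0.0941% of all genes lower, at a median of -0.03. Fn1, fibronectin, had 877 and 935 CPM with EV, 855 and 879 with WT and 937 and 915 with bHLH. Myh9, a non-muscle myosin, had 667 and 657 CPM with EV, 625 and 613 with WT and 693 and 653 with bHLH. Sox9 had 217 and 226 CPM with EV, 239 and 253 with WT and 227 and 227 with bHLH. None of these 3 genes was called in any comparison.

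Of 38 genes listed for MRTF-SRF, the actin-sensing transcription factors, 31 were tested. The list holds the factors themselves (Srf, Mrtfa and Mrtfb) beside targets and immediate early genes. Between the constructs 2 were higher in WT (Tes and Actn1) and 4 lower (Srf, Acta2, Actb and Filip1l), beside 1.49% and 1.08% of all genes, at a median of -0.04. Actb, cytoplasmic actin, had 11660 and 11500 CPM with EV, 11140 and 10680 with WT and 12900 and 13040 with bHLH, highest in both bHLH libraries (log2 fold change 0.16 ± 0.03, adjusted p = 0.0162 against EV). Srf had 85.8 and 78.6 CPM with EV, 65.7 and 69.95 with WT and 86 and 85.3 with bHLH. It differed between constructs (log2 fold change -0.34 ± 0.08, adjusted p = 0.0262), a call lost under DESeq2 (adjusted p = 0.0635) and in 5 of the 6 fits that left out a library, with an adjusted p of up to 0.169. Of the 15 tested AP-1 genes, which encode Jun, Fos and related factors, 0 were called in any comparison with edgeR or DESeq2, with 0, 5 and 3 at an unadjusted p under 0.05 and medians of -0.02, -0.05 and 0.02 for WT against EV, bHLH against EV and WT against bHLH. Jun had 317 and 314 CPM with EV, 321 and 338 with WT and 333 and 315 with bHLH. Junb had 20.2 and 19.1 CPM with EV, 22.6 and 19.6 with WT and 14.6 and 15.6 with bHLH, lowest in both bHLH libraries. Of 8 tested melanocytic genes, only Gpnmb was called. It was lower in WT than in EV and lower in WT than in bHLH, beside 0.0941% and 1.08% of all genes.

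Of 43 tested hypoxia-responsive genes, 8 were higher in WT than in bHLH and none lower, beside 1.49% of all genes, at a list median of 0.2 against 0.002. Between bHLH and EV, Bnip3 and Ero1l fell and none rose, beside 0.42% of all genes that fell. Of the 43, 35 lay below 0, at a median of -0.1 against -0.003. Between WT and EV 0 were called with edgeR or DESeq2, with 5 at an unadjusted p under 0.05 and a median of 0.05. Slc2a1, the glucose transporter, had 67.1 and 70.3 CPM with EV, 78 and 79.8 with WT and 57.6 and 59.6 with bHLH, with WT above and bHLH below EV (log2 fold change 0.43 ± 0.08, adjusted p = 0.00522 between the constructs). Hk2, a hexokinase that traps glucose in the cell, had 26 and 30.8 CPM with EV, 41.1 and 42 with WT and 26.6 and 26.4 with bHLH, where EV and bHLH overlapped and WT stood above (log2 fold change 0.65 ± 0.11, adjusted p = 0.00301). Bnip3, a mitophagy receptor, had 97.5 and 93.5 CPM with EV, 100.0 and 96.5 with WT and 75.5 and 74.8 with bHLH, where WT and EV overlapped and bHLH stood below (log2 fold change 0.39 ± 0.07, adjusted p = 0.00603). Hif1a, whose protein drives these genes, had 83.5 and 88.5 CPM with EV, 91.8 and 88.5 with WT and 80.8 and 76.3 with bHLH. It was not called. Of 19 tested genes of the ATF4 stress response, Asns, Slc7a11 and Slc7a5 were higher in WT than bHLH and none lower, beside 1.49% of all genes, and DESeq2 called 1 with or without its independent filtering. Slc7a11, the cystine transporter, had 47.4 and 46.7 CPM with EV, 57.9 and 55 with WT and 36.4 and 34.1 with bHLH. It fell with bHLH (log2 fold change -0.42 ± 0.09, adjusted p = 0.0484).

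Of 28 tested interferon-responsive and MHC class I genes, 2 (B2m and Lgals3bp) fell with WT and none rose, beside 0.0941% of all genes that fell. The list median was -0.32, beside 0.003 over all genes, with 21 members below 0. With bHLH 1 (Ifit3) fell and none rose, beside 0.42% of all genes, at a list median of -0.25, beside -0.003, with 24 below 0. Both comparisons use the same EV libraries. B2m, the light chain of MHC class I, had 605 and 609 CPM with EV, 495 and 478 with WT and 505 and 559.5 with bHLH. It fell with WT (log2 fold change -0.32 ± 0.05, adjusted p = 0.0198), while bHLH against EV gave log2 fold change -0.19 ± 0.05, adjusted p = 0.158. Ifi27l2a, an interferon-induced gene, had 27 and 46 counts with EV, 8 and 5 with WT and 15 and 30 with bHLH. It was not called in any comparison. Between the constructs only Lgals3bp was called, lower in WT, beside 1.08% of all genes, at a list median of 0.01. Among 12 tested secreted immune factors only Tgfb1 was called. It was higher with bHLH than EV, beside 0.21% of all genes, and lower in WT than bHLH, beside 1.08%. Il33, an alarmin, had 13.2 and 16.5 CPM with EV, 12.7 and 10.4 with WT and 11.1 and 8.93 with bHLH. Cx3cl1, a chemokine, had 80.1 and 83.8 CPM with EV, 86.1 and 82.2 with WT and 74.2 and 72.7 with bHLH. Ccl5, a T-cell chemokine, had 3.64 and 4.98 CPM with EV, 3.77 and 2.7 with WT and 2.31 and 2.42 with bHLH. None of these 3 genes passed the test. Leukocyte markers summed to 1.82 and 2.0 CPM with EV, 1.47 and 1.71 with WT and 1.16 and 1.86 with bHLH, with 4 of the 7 at 0 in every library, and in bulk cultures fewer cells of a type and less RNA per cell cannot be told apart.

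Of 38 cell cycle genes, Mki67, Top2a, Birc5 and Ccnd1 were lower in WT than in bHLH and none was higher, beside 1.08% of all genes, at a median of -0.09. Mki67, the proliferation marker, had 489 and 468 CPM with EV, 446 and 448 with WT and 523 and 541 with bHLH, a difference of log2 fold change -0.25 ± 0.05, adjusted p = 0.00752, and neither construct was called against EV. In WT and bHLH against EV, 0 cell cycle genes were called with edgeR, with 5 and 10 at an unadjusted p under 0.05 and 0 and 3 called with DESeq2. Ccnd1, cyclin D1, differed by -0.17 on the log2 scale (adjusted p = 0.0343). Of 18 genes of sterol synthesis, only Idi1, an isomerase of the isoprenoid pathway, was called. It had 17.3 and 16.8 CPM with EV, 20.7 and 21.1 with WT and 14.3 and 11.5 with bHLH. It was higher in WT than bHLH (log2 fold change 0.70 ± 0.15, adjusted p = 0.0204), beside 1.49% of all genes.

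**Figure D3:**
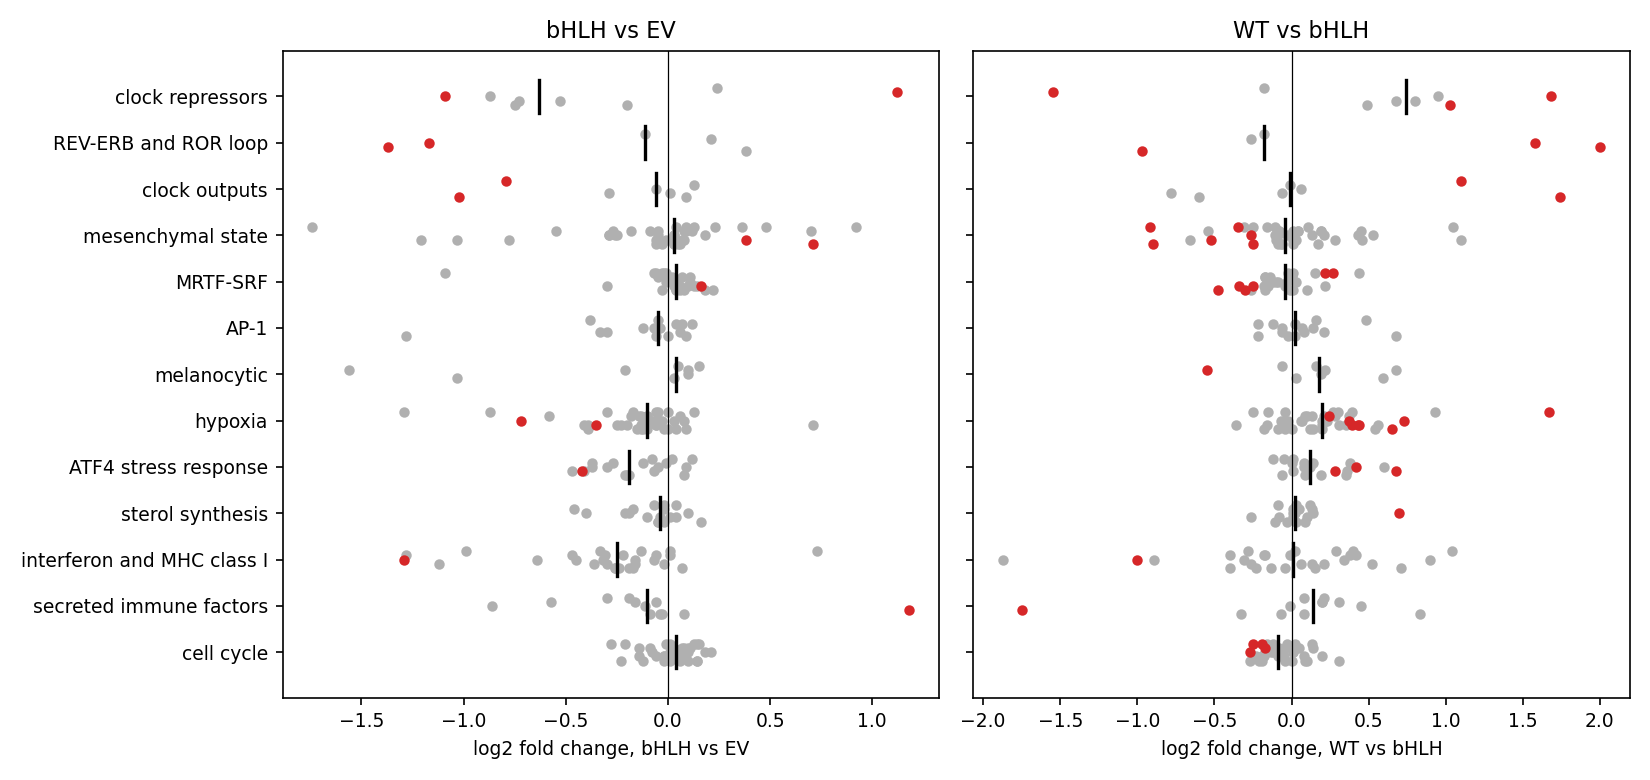
Rows are gene lists, and the panels are bHLH against EV and WT against bHLH, with the log2 fold change on the x axis. A dot stands for each tested member, red where it was called, and a black bar for the list median. The hypoxia list has 8 called members above 0 between WT and bHLH, the mesenchymal list 6 below 0, and the AP-1 list none in either panel.

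Several of the largest changes with bHLH lay in genes that share sequence with a near-identical copy, where reads can be assigned to either. Hmga1b (chr11:120762794-120764419), a retrocopy of the chromatin protein gene Hmga1, had 48.7 and 41.6 CPM with EV, 38.9 and 56.5 with WT and 310.4 and 283 with bHLH. It rose with bHLH (log2 fold change 2.71 ± 0.12, adjusted p = 1.6e-09), while Hmga1 itself fell (log2 fold change -0.28 ± 0.06, adjusted p = 0.0419). Summed, the 2 genes had 2113 and 2147 CPM with EV, 1939 and 1658 with WT and 1965 and 2055 with bHLH, and the sum was not called (log2 fold change -0.08 ± 0.05, adjusted p = 0.65, bHLH against EV). The dynein light chain gene Dynlt1b had 38.6 and 42.5 CPM with EV, 32.9 and 36.6 with WT and 17.3 and 14.2 with bHLH. It fell with bHLH (log2 fold change -1.37 ± 0.12, adjusted p = 2.87e-05), whereas the sum of Dynlt1a, Dynlt1b, Dynlt1c and Dynlt1f differed by -0.12 ± 0.06 (adjusted p = 0.522). The Rps12 and Amd families, summed, differed by -0.04 and 0.09. With the copies of these 4 families summed, an alternative added with the data in view, 19, 74 and 349 genes were called for WT against EV, bHLH against EV and WT against bHLH. Of the 87 genes called with bHLH against EV, 8 higher and 13 lower were pseudogenes, among 391 tested, where 0.21% and 0.42% of all genes were called higher and lower.

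**Figure D4:**
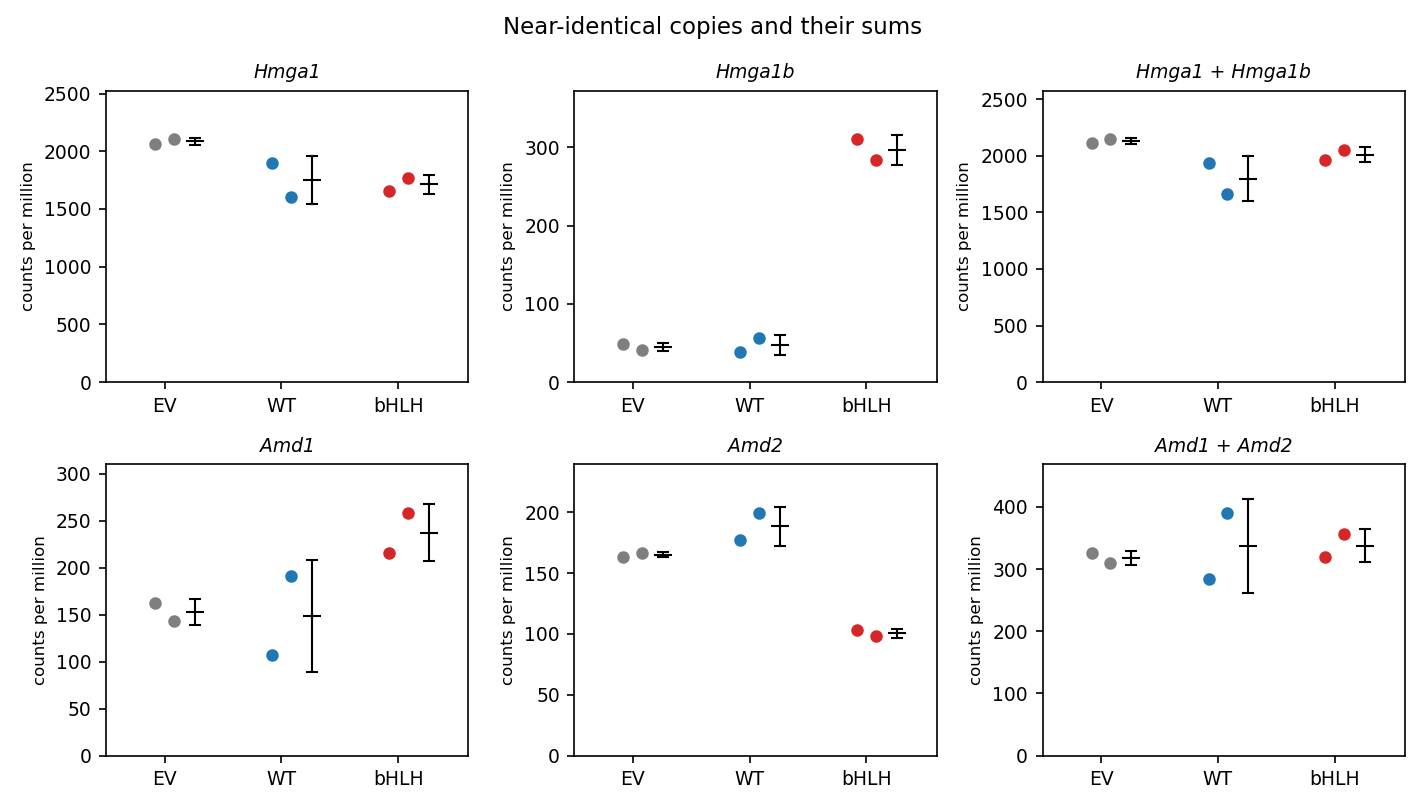
CPM on the y axis for families of near-identical genes in each library, for the single copies and for their sum, by YUMM1.7-EV, -WT and -bHLH, with points for libraries and the mean ± SD of 2 libraries beside them. Hmga1b is at 310 and 283 CPM in the bHLH libraries and between 38.9 and 56.5 elsewhere, while the summed Hmga1 family lies between 1658 and 2147 CPM in all 6, and the Amd1 and Amd2 panels move in opposite directions with bHLH.

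The effect of the bHLH construct on the clock genes in YUMM1.7 was then set against its effect in YUMM2.1 cells, in a fit of 12 libraries with an interaction term. In YUMM2.1, 3591 of 15120 genes (23.8%) were called between bHLH and EV, and 1496 (9.89%) had an effect that differed between the lines. In YUMM2.1, unlike YUMM1.7, libraries with the same replicate number deviated together, with correlations of 0.427, 0.478 and 0.218 between the 3 groups across genes, and with the replicate block 2611 genes differed. Each of the genes named next kept its side of the threshold with the block. Differences are given on the log2 scale as YUMM1.7 minus the other line. Cry1 had an effect of 1.11 in YUMM2.1, a difference of 0.0 ± 0.34 (adjusted p = 1.0). Per3 had -1.21 there, a difference of 0.11 ± 0.22 (adjusted p = 0.833). Nr1d2 had -1.52 there, a difference of 0.34 ± 0.22 (adjusted p = 0.402), and Tef -1.05, a difference of 0.25 ± 0.16 (adjusted p = 0.395). None of these 4 differences was called, and the effects of Nr1d1 and Dbp in YUMM2.1 were -2.18 and -1.52. Of the clock genes, 3 had a called difference. Rorb (1.51 ± 0.15, adjusted p = 0.000533) fell by 1.63 in YUMM2.1. Nfil3 (-1.55 ± 0.3, adjusted p = 0.0104) rose by 1.92 there. Wee1, a kinase that holds back mitosis, was the remaining gene (0.74 ± 0.15, adjusted p = 0.0117). Outside the clock, Tmprss11a (4.05 ± 0.55, adjusted p = 0.00176) and Tgfb1 (2.4 ± 0.41, adjusted p = 0.00573) rose in YUMM1.7 and fell in YUMM2.1, by 1.77 and 1.22. Fn1 (-1.65 ± 0.44, adjusted p = 0.039), Junb (-1.86 ± 0.31, adjusted p = 0.00488) and Axl (-0.9 ± 0.26, adjusted p = 0.0493) rose in YUMM2.1 by 1.67, 1.47 and 0.96 and were not called in YUMM1.7. Of the 87 genes called in YUMM1.7, 32 were called in both lines, 12 in opposite directions. The 20 with the same direction were 22.99% of the 87 and 0.6256% of the 3197 YUMM2.1 calls tested in YUMM1.7.

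In YUMM2.1 edgeR called 0 genes between WT and EV (0.0% of 15120, 249 at an unadjusted p under 0.05), and none differed in its WT effect between the lines (0.0%, 398 at an unadjusted p under 0.05, and 0 with DESeq2). Contrasts within YUMM2.1 were fitted without the replicate block, so variation shared by replicate number stayed in their error. With the block, 0 genes differed in the WT effect between the lines. In YUMM2.1 the libraries labelled EV and WT resembled each other across the labels: after centring, EV replicate 1 correlated with WT replicate 1 at 0.188 and EV replicate 2 with WT replicate 2 at 0.076, while the EV libraries correlated with each other at -0.659 and the WT libraries at -0.5, as a description across genes. With EV replicate 2 and WT replicate 1 of YUMM2.1 exchanged, as an alternative to their labels, 2938 genes differed in the bHLH effect and 164 in the WT effect, so the YUMM2.1 values above rest on the labels as given. In these libraries Sox9, for example, had 19.0 and 89.0 CPM with EV and 20.1 and 87.5 with WT. Whether the resemblance across labels followed the replicate numbers or the labelling was not tested.

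In aC3 cells, where Bmal1 is absent before the construct is added, wild-type Bmal1 changed 1964 of 14914 genes (13.2%) and bHLH 1993 (13.4%) against EV, and 731 (4.9%) and 696 (4.67%) differed from YUMM1.7 in these effects. With WT, 6 E-box targets had smaller effects in YUMM1.7 than in aC3. Per2 rose by 2.9 in aC3, a difference of -2.83 ± 0.43 (adjusted p = 0.00113). Nr1d1 rose by 2.57 (difference -1.93 ± 0.33, adjusted p = 0.0026) and Nr1d2 by 1.57 (difference -1.16 ± 0.14, adjusted p = 0.000179). The output factors Dbp and Tef rose by 2.54 and 1.36, with differences of -1.82 ± 0.25 (adjusted p = 0.000566) and -1.05 ± 0.13 (adjusted p = 0.000241). Per3 rose by 2.25 (difference -1.66 ± 0.22, adjusted p = 0.000354). Arntl differed in the opposite direction (1.52 ± 0.26, adjusted p = 0.00261), since it fell by 0.84 with WT in aC3. With bHLH, Cry1 (0.01 ± 0.17, adjusted p = 1.0) and Per3 (0.01 ± 0.24, adjusted p = 1.0) were not called as different from aC3, where their own effects were 1.12 and -1.09. Tef fell with bHLH in YUMM1.7 and had 0.05 ± 0.1 in aC3, a difference of -0.84 ± 0.14 (adjusted p = 0.00359), and Nr1d2 fell further in aC3, by 2.01 (difference 0.85 ± 0.18, adjusted p = 0.0135). Of the 87 genes called with bHLH in YUMM1.7, 40 were called in both lines, 36 of them in the same direction, which is 41.38% of the 87 and 1.864% of the 1931 aC3 calls tested in YUMM1.7. The 36 hold Cry1, Nr1d1, Nr1d2 and Per3, and also copies and pseudogenes such as Hmga1b, Dynlt1b, Rps12-ps3 and Rpl27-ps3. For such copies reads can be divided between near-identical genes. Of the 19 called with WT, 3 were called in both lines and 1, Mmp3, in the same direction.

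**Figure D5:**
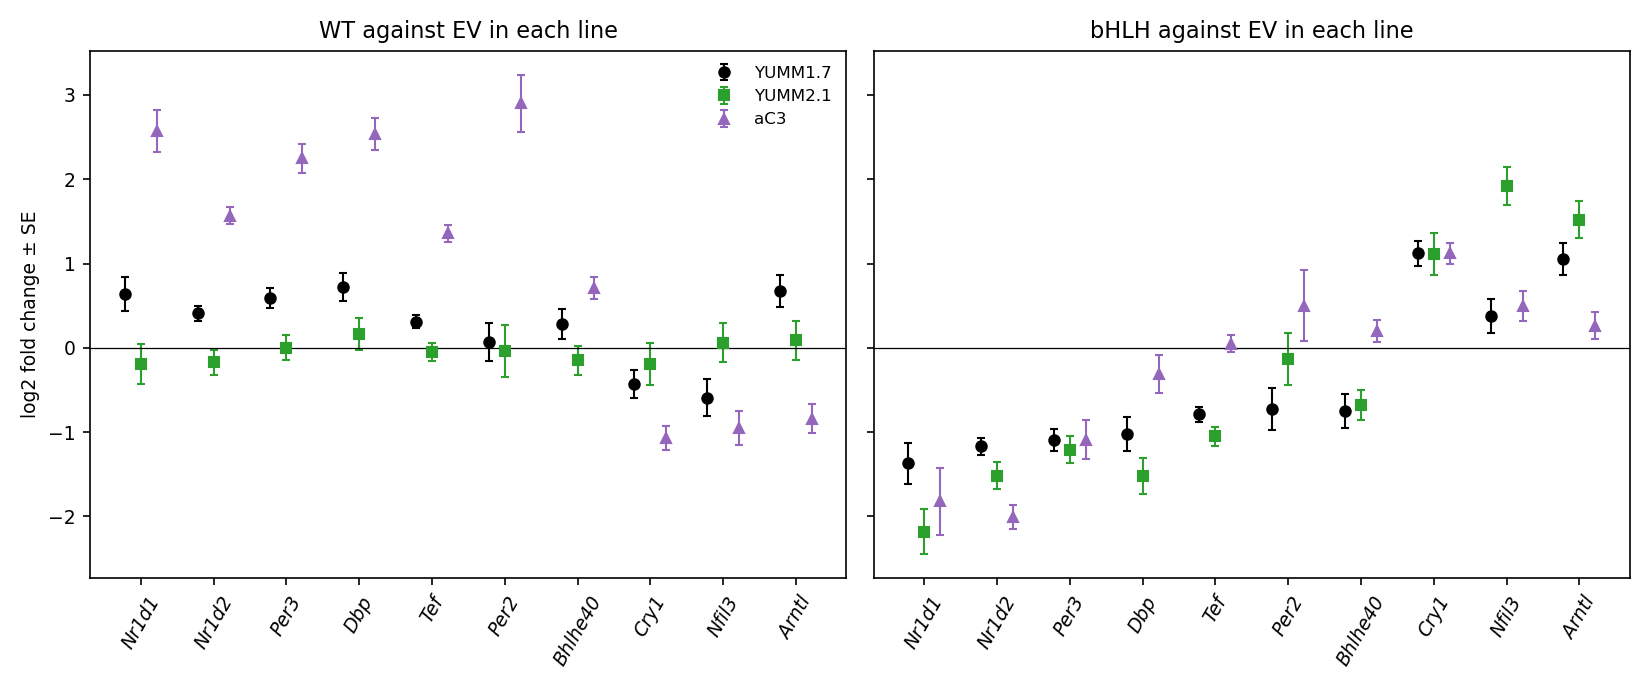
Log2 fold change against EV with its SE on the y axis for clock genes, with WT and bHLH in separate panels, in YUMM1.7 (fit of 6 libraries), YUMM2.1 and aC3 (fits of 12 libraries). With bHLH, Cry1 is at 1.12, 1.11 and 1.12 and Per3 at -1.09, -1.21 and -1.09 in the 3 lines, while with WT the effects on Per2, Nr1d1, Dbp and Per3 in aC3 are 2.9, 2.57, 2.54 and 2.25.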

How the data were processed

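RNA of cultured YUMM1.7 cells was made into 3' QuantSeq libraries, read on a NextSeq and aligned to mm10 with bowtie2, and the authors deposited a table of counts per gene estimated with RSEM (version 1.2.3 in the submitters' processing notes; the study's methods give another version). Which annotation release and which strand setting were used for counting is not given in the sources used here. Such counts follow transcript 3' ends, and reads shared by near-identical genes are divided by the estimate. The table holds 51789 genes, of which 51596 were named from GENCODE, 21655 had a count in the 6 libraries and 13816 passed filterByExpr. Samples were grouped by the labelled cell line and construct. All 6 libraries entered one fit with TMM scaling and edgeR 4.0.16 (R 4.3.3), and each contrast used the quasi-likelihood test with Benjamini-Hochberg adjustment over all tested genes at 0.05. Fold changes are given on the log2 scale with SE. Construct effects were compared with YUMM2.1 and aC3 as interaction terms in fits of 12 libraries.

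The compared libraries, the gene lists and the rule for named genes were chosen with earlier results of these data known. The rule named all clock genes and up to 10 called genes per direction and contrast with the largest change. Those called genes had a mean of at least 20 counts over the 4 libraries compared and no overlap between the groups. The rule also named genes from the study's work on its other lines, up to 4 members per list and 5 genes per interaction. P-values rest on the spread between the libraries of a group, estimated jointly over all 3 groups and moderated across genes. A comparison therefore also depends on the spread of the group outside it. This spread may be technical, although the study calls Quant-seq duplicates of its YUMM lines biological replicates. Libraries of a group differed by more than counting noise (chi-square per degree of freedom 2.68 to 4.57), so each was counted as a library of its own, which does not tell separate cultures from repeat libraries of one. In simulated counts with 200 genes changed by 1 on the log2 scale between bHLH and EV, 145 of 200 were recovered among 13565 genes, and 6.45% of calls were false. Between WT and EV, where no gene was changed, 3 were called. The counts were drawn with the spread fitted to these 6 libraries, so the simulation cannot show whether that spread holds. It does not cover reads divided between copies. Alternatives were DESeq2 1.42.0, its size factors, other filters, other sets of libraries, a replicate block and leaving out each library, and, chosen after the data were seen, protein-coding genes alone, summed copies and DESeq2 without independent filtering, since by default it left most clock genes without an adjusted p against EV. Some items are not reported here.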

Additional observations from a re-analysis of the deposited data

Results flagged for a closer look

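Effects of a construct that differed between YUMM1.7 and another line, by the interaction test, are listed as log2 differences, YUMM1.7 minus the other line. Among clock and state genes, the bHLH effect differed from YUMM2.1 for Rorb (1.51), Nfil3 (-1.55), Wee1 (0.74), Junb (-1.86), Axl (-0.9) and Fn1 (-1.65). It differed from aC3 for Bhlhe40 (-0.95), Nr1d2 (0.85), Tef (-0.84), Sox10 (-1.94), Axl (0.36) and Fn1 (-0.43), where Sox10 had at most 17 counts in a YUMM1.7 library. The WT effect differed from aC3 for Arntl (1.52), Per2 (-2.83), Per3 (-1.66), Nr1d1 (-1.93), Nr1d2 (-1.16), Rora (-0.8), Dbp (-1.82), Tef (-1.05), Sox9 (-1.19), Axl (0.37) and Fn1 (-0.92).

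The largest fitted differences lay in genes at or near 0 in some group, where the fitted value depends on the prior count and is no bound. For the bHLH effect against YUMM2.1 these were Sap18b (-11.67), Plac9a (-8.93), Fam19a1 (-8.02), Slco4a1 (-8.01) and 1700012B09Rik (-7.38). In YUMM2.1, Sap18b had 0 CPM in both EV and both WT libraries and 16.6 and 33.4 CPM with bHLH, while all 6 YUMM1.7 libraries had counts. For the bHLH effect against aC3 they were Gm14036 (-14.45), Gm43694 (-10.56), Tnfrsf9 (-6.17), Arl4c (-6.07) and Gda (5.68). Arl4c, a small GTPase, lay at 45.4 to 49.1 CPM in all YUMM1.7 libraries and at 0.0 in both aC3-EV libraries. For the WT effect against aC3 they were Gm14036 (-13.59), Sap18b (-10.0), Pabpc4l (6.11), Arl4c (-5.87) and Cth (5.67).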

How the results depend on the processing

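Numbers of called genes depended on the setting more than the direction of named genes did. Of 65 named calls, 54 were lost under at least 1 alternative and none reversed, and 8 results of uncalled genes passed under an alternative. Of 51 list medians, 39 moved under at least 1 alternative, with 10 to 15 moving in each fit that left out a library. DESeq2 without independent filtering called 24, 71 and 252 genes for WT against EV, bHLH against EV and WT against bHLH. For WT against EV (19 genes), DESeq2 called 35, no filter on low counts 246, the fit over all 40 libraries 0, protein-coding genes alone 32 and a log2 fold change of at least 1 gave 6. Leaving out a library gave 2 (without EV replicate 1) to 165 (without WT replicate 1), and 9 without EV replicate 2. For bHLH against EV (87), no filter gave 331, all 40 libraries 4, the 4 libraries compared alone 185 and a log2 fold change of at least 1 gave 30. Leaving out a library gave 22 (without EV replicate 2) to 197 (without WT replicate 1), with 30 without EV replicate 1, 195 without WT replicate 2, and 45 and 43 without bHLH replicate 1 and 2. For WT against bHLH (355), the first 2 of these settings gave 684 and 27, the fold minimum 53, and leaving out a library 106 (without bHLH replicate 2) to 308, with 213 and 225 without EV replicate 1 and 2 and 187 without bHLH replicate 1.

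Differences from YUMM2.1 in the bHLH effect (1496) numbered 562 (without YUMM1.7 bHLH replicate 1) to 1116 with a library left out, with 613, 583 and 600 without bHLH replicate 2, EV replicate 1 and EV replicate 2, and 2938 with the YUMM2.1 libraries EV replicate 2 and WT replicate 1 exchanged. Differences from aC3 in the bHLH effect (696) numbered 1060 without a filter and 172 (without EV replicate 1) to 651, with 237, 214 and 251 without EV replicate 2, bHLH replicate 1 and bHLH replicate 2. The WT effect differed from YUMM2.1 in 52 genes without a filter and in 164 after the exchange, against 0, and from aC3 (731) in 277 (without EV replicate 1) to 558, with 392 and 307 without EV replicate 2 and WT replicate 2. In each case the cause was not tested.

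In YUMM1.7 the replicate numbers are shared only as numbers: deviations of same-numbered libraries correlated at 0.0757, -0.026 and -0.0571 across genes. In YUMM2.1 they paired the libraries (0.427, 0.478 and 0.218), and in aC3 they did not (0.063, 0.045 and 0.07). With the replicate block, 14, 66 and 315 genes were called for WT against EV, bHLH against EV and WT against bHLH, and 2611, 783, 0 and 835 for the bHLH effect against YUMM2.1 and aC3 and the WT effect against YUMM2.1 and aC3. At these depths a gene with few counts, such as Hlf at 4 to 14, could not show a difference of moderate size.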

Other observations

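The groups given here were chosen after their values were seen. Of 14 snoRNA host genes, 4 fell with bHLH against EV and none rose, at a median log2 fold change of -0.19. The share of all tested genes that fell was 0.42%. The 4 were Gas5 (-0.29), Snhg9 (-0.36), Snhg6 (-1.17) and Snhg8 (-0.55). Between the constructs 5 of the 14 were higher in WT and none lower, beside 1.49% of all tested genes higher, at a median of 0.2. Of 87 genes of the mitochondrial respiratory chain, 3 fell with bHLH and none rose, beside 0.42% of all tested genes that fell. They were Cox7c (-0.86), Ndufb3 (-0.39) and Usmg5 (-0.47), at a list median of -0.06. Of 80 cytosolic ribosomal protein genes, 3 fell and 1 rose with bHLH, beside 0.42% and 0.21% of all tested genes. Between the constructs 6 of the 87 were higher in WT and none lower. Of the 80, 8 were higher and 1 lower, beside 1.49% and 1.08% of all tested genes. The median log2 fold change of protein-coding genes between bHLH and EV was -0.058 for 199 genes with under 1000 exon bases and 0.021 for 2207 genes with at least 8000.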
